A study of Homo sapiens with 6 samples.

Results

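Nonsense-mediated decay (NMD) is the surveillance pathway that degrades mRNAs on which translation stops too early. The data described here are the levels of 8 transcripts of NMD factors, 1 for each of UPF1, UPF2, UPF3B, SMG1, SMG5, SMG6, MAGOH and CASC3. They were chosen by a fixed list of Ensembl transcript IDs that pairs each ID with its gene symbol, and all 8 were found among the 203028 transcripts of each library. The pairing came with the list and was not checked against an annotation of these IDs. Other transcripts of these genes were not matched. Values given under a gene symbol are thus those of its listed transcript, and the gene's mRNA as a whole was not measured. The libraries were made from polyadenylated RNA of HEK293 cells, an established human embryonic kidney line. There were 3 libraries of cells carrying scrambled control shRNA and 3 of cells carrying shRNA against PRPF39, a splicing factor that works with U1, the small nuclear ribonucleoprotein of 5′ splice sites. All cells had received a lentivirus and been selected in puromycin, so the control cells share the vector and the drug. The labels do not say whether replicates were separate transductions or cultures, nor how many shRNA sequences were used. All p-values below rest on the scatter among these 6 libraries, and that scatter may be technical. The level of PRPF39 and the markers of HEK293 cells were not analysed here, because the IDs of their transcripts were not matched.

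In NMD, the helicase UPF1 is phosphorylated by the kinase SMG1, and UPF2 bridges UPF1 to UPF3B at an exon junction complex left downstream of a stop codon. Phosphorylated UPF1 recruits SMG6, an endonuclease that cuts the mRNA, and SMG5, which helps to bring in enzymes that remove the poly(A) tail and the cap. MAGOH and CASC3 are components of the exon junction complex, which the spliceosome deposits on spliced mRNA. The mRNAs of several NMD factors are themselves substrates of the pathway and are known to increase when it is inhibited.

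The libraries held 113747941 to 246491084 estimated counts, and both extremes were PRPF39 shRNA libraries (replicates 2 and 3). Taking the 20216 transcripts whose mean was 5 CPM or more (CPM, counts scaled to library size), the first principal component separated all 3 PRPF39 shRNA libraries (31.9 to 38.9) from all 3 control libraries (-60.5 to -16.5), with control replicate 3 farthest out. A test across all 97571 transcripts that passed the filter on low counts found 432 higher and 450 lower in PRPF39 shRNA libraries, 0.904% in all. A call here means a Benjamini-Hochberg adjusted p under 0.05 in the quasi-likelihood test of edgeR, and 0.443% of the transcripts were called higher. With any 1 library left out, the same test called at most 14 higher and 12 lower.

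The MAGOH transcript stood higher in every PRPF39 shRNA library than in any control library, and so did those of SMG5 and UPF3B. The transcripts of UPF1, SMG1 and CASC3 overlapped between groups, and that of SMG6 was lower in CPM without overlap. Higher ranges without overlap in CPM were found for 12.6% of all transcripts tested and 24% of those of at least 5 CPM, and lower ones for 12.8% and 16.9%. In the test across all 97571 transcripts none of the 8 passed the threshold. MAGOH and SMG5 rose in the same test restricted to the 20216 transcripts of at least 5 CPM, where 17.7% of all transcripts were called and 8.55% were called higher. The level of 7 of the 8 was above 5 CPM. The exception was the listed UPF2 transcript, which was hardly detected. In RNA from whole cultures, more RNA per cell and more cells that carry it cannot be told apart.

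**Figure D1:**
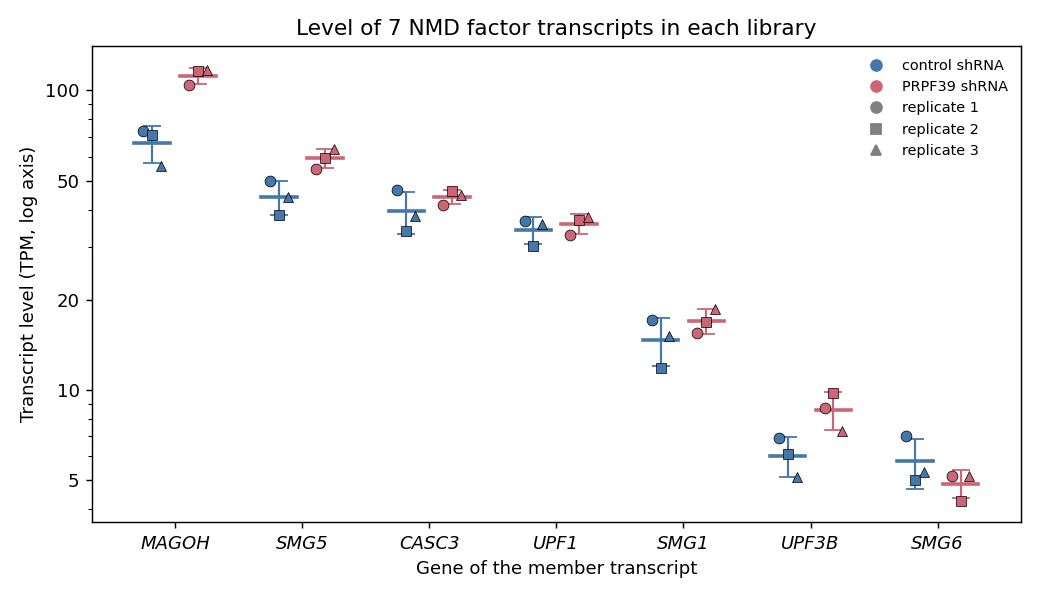
Level of 7 NMD factor transcripts in each library, in TPM (log axis), ordered by the control mean. Points are libraries, horizontal bars are group means and whiskers are ± 1 SD of 3 libraries. The PRPF39 shRNA libraries lie above all control libraries for MAGOH (103.8 to 116.6 against 55.8 to 72.96 TPM), SMG5 and UPF3B, and UPF2 is left out because it stood at 0.1325 TPM or less.

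TPM, the number of transcript copies relative to all, is scaled for transcript length and is the scale on which genes can be compared. In control libraries the order of mean levels was MAGOH, SMG5, CASC3, UPF1, SMG1, UPF3B, SMG6 and UPF2. There the range of CASC3 (33.87 to 46.49 TPM) overlapped those of both SMG5 and UPF1, and the ranges of UPF3B and SMG6 overlapped as well. With PRPF39 shRNA the order was the same, and no range overlapped the next: the lowest SMG5 library stood at 54.69 TPM, above the highest CASC3 library at 46.08 TPM, and the lowest UPF3B library at 7.32 TPM, above the highest SMG6 library at 5.175 TPM. By mean TPM over all 6 libraries, MAGOH lay at the 99.2 percentile of the 157004 transcripts with reads, and SMG6, the lowest of the 7, at the 89.3 percentile. The means over 6 libraries of these 7 transcripts thus ran from 5.33 TPM (SMG6) to 89.3 TPM (MAGOH).

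UPF1, the helicase on which the pathway depends, lies on chromosome 19 from 18831959 to 18868230 (GRCh38.p14), and its listed transcript ENST00000262803 is 5348 bases long. Its level was 36.6, 30.17 and 35.82 TPM in control replicates 1, 2 and 3 and 32.84, 36.98 and 37.78 TPM in PRPF39 shRNA replicates 1, 2 and 3. The groups overlapped, with control replicate 2 lowest of the 6 in TPM and PRPF39 shRNA replicate 1 lowest in CPM (192, against 200.3 in control replicate 2). The group means were 34.2 ± 3.51 TPM (control) and 35.9 ± 2.65 TPM (PRPF39 shRNA; SD, n = 3 each). Its log2 fold change was 0.04 ± 0.09 (SE), with a 95% interval from -0.17 to 0.24 (adjusted p = 0.886, edgeR). The interval ends at 1.18-fold, so a larger rise lies outside it. The value was -0.02 at 5 CPM and above, so the direction was not fixed.

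UPF2 bridges UPF1 and UPF3B. The gene lies on chromosome 10 from 11920022 to 12043170, and the listed transcript, ENST00000356352, is 5569 bases long. It was listed at 0 in control replicate 2, at 11.6 and 12.5 estimated counts in control replicates 1 and 3, and at 11.1, 11.4 and 137.9 estimated counts in PRPF39 shRNA replicates 1, 2 and 3. Its level reached 0.01802 TPM in the controls and 0.1325 TPM with PRPF39 shRNA, the latter in replicate 3 alone. The list took it as the main transcript of its gene, and these levels go against that. Other transcripts of UPF2 were not matched and are not analysed here. The log2 fold change of 2.27 ± 1.32 (SE; adjusted p = 0.461, edgeR) was 0.67 ± 1.46 without PRPF39 shRNA replicate 3 (adjusted p = 0.909, edgeR). The level of UPF2 mRNA as a whole is thus not described by these values.

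UPF3B binds the exon junction complex and links it to UPF2. The gene lies on chromosome X from 119805311 to 119852963, and the listed transcript, ENST00000276201, is 2378 bases long. Its level was 6.909, 6.108 and 5.107 TPM in control replicates 1, 2 and 3. In PRPF39 shRNA replicates 1, 2 and 3 it was 8.731, 9.755 and 7.32 TPM. All 3 PRPF39 shRNA libraries were above all 3 controls, and the gap between the nearest libraries (6.909 and 7.32 TPM) was narrow. With a log2 fold change of 0.51 ± 0.17 (SE), UPF3B stood 1.42-fold higher, with a 95% interval from 1.07-fold to 1.89-fold, and did not pass the threshold (adjusted p = 0.222, edgeR). Restricted to transcripts of at least 5 CPM it was 0.46 ± 0.16 (SE; adjusted p = 0.0753, edgeR). DESeq2 on all 97571 transcripts called UPF3B higher (adjusted p = 0.0414), where it called 9.25% of all transcripts. Here and below, this 9.25% is of all 97571, those to which DESeq2 gave no adjusted p included. Run on transcripts of at least 5 CPM, DESeq2 called 27.6%, UPF3B among them (adjusted p = 0.0342).

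SMG1, the kinase that phosphorylates UPF1, lies on chromosome 16 from 18804860 to 18926408. Its listed transcript ENST00000446231 is the longest of the 8, at 16115 bases. Related pseudogene copies of SMG1 exist on the same chromosome, so its estimate depends on how the quantifier shared reads between them. Its level was 17.1, 11.81 and 15.18 TPM in the controls and 15.48, 16.89 and 18.62 TPM in PRPF39 shRNA replicates 1, 2 and 3. The groups overlapped, and control replicate 2 was the lowest library in TPM, as it was for UPF1, SMG5 and CASC3. In CPM this did not hold for UPF1. For SMG1 the log2 fold change was 0.18 ± 0.10 (SE), with a 95% interval from -0.05 to 0.41 (adjusted p = 0.426, edgeR), and without control replicate 2 it was 0.11 (adjusted p = 0.648, edgeR).

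SMG5 and SMG6 act on phosphorylated UPF1 by different routes, and the log2 fold changes of their transcripts had opposite signs, that of SMG6 not past the threshold in edgeR. SMG5 lies on chromosome 1 from 156249224 to 156291516, and its listed transcript ENST00000361813 is 4559 bases long. Its level was 49.92, 38.33 and 44.14 TPM in the controls and 54.69, 59.64 and 63.51 TPM in PRPF39 shRNA replicates 1, 2 and 3. All PRPF39 shRNA libraries were above all control libraries. In CPM the control libraries lay close together, at 197.9, 189 and 195.7, below PRPF39 shRNA libraries at 238.1, 269.3 and 262.1. These CPM include TMM factors of 1.044, 0.943 and 1.009 in control and 0.996, 0.987 and 1.024 in PRPF39 shRNA libraries. Over all transcripts tested, the log2 fold change of SMG5 was 0.40 ± 0.08 (SE), or 1.32-fold with a 95% interval from 1.17-fold to 1.49-fold (adjusted p = 0.0708, edgeR). Among transcripts of at least 5 CPM it was 0.35 ± 0.09 (SE), and this passed the threshold (adjusted p = 0.0343, edgeR). A log2 change at least as high was found for 15.8% of those 20216 transcripts, so in size the rise was not unusual.

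The SMG5 call at 5 CPM depended on single libraries. It was lost without control replicate 2 (adjusted p = 0.0909, edgeR), control replicate 3 (0.0638), PRPF39 shRNA replicate 2 (0.0981) or PRPF39 shRNA replicate 3 (0.13), and kept without control replicate 1 (0.0413) or PRPF39 shRNA replicate 1 (0.0444). Its log2 fold change stayed between 0.30 and 0.41 in these 6 fits. The call was also lost with the replicate number as a block (0.35 ± 0.10, SE; adjusted p = 0.0575, edgeR), where 16.7% of transcripts were called. In the same order of libraries (control replicates 1, 2 and 3, then PRPF39 shRNA replicates 1, 2 and 3), the fits without 1 library called 21.2%, 9.4%, 8.42%, 9.81%, 6.99% and 4.36% of all transcripts. DESeq2 called SMG5 in the full table as well (adjusted p = 6.74e-06), where it called 9.25% of all transcripts. Run on those of at least 5 CPM it called 27.6%.

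SMG6 lies on chromosome 17 from 2059839 to 2303785, and its listed transcript ENST00000263073 is 5960 bases long. Its level was 7.04, 4.988 and 5.326 TPM in the controls and 5.172, 4.274 and 5.175 TPM in PRPF39 shRNA replicates 1, 2 and 3. The groups overlapped in TPM. In CPM they did not, with 39.06, 34.57 and 33.11 in control and 31.64, 27.17 and 30.08 in PRPF39 shRNA libraries. For SMG6 the log2 fold change was -0.26 ± 0.10 (SE; adjusted p = 0.283, edgeR), and -0.31 ± 0.10 at 5 CPM and above (SE; adjusted p = 0.0719, edgeR). SMG6 passed the threshold in 1 of the fits run, DESeq2 on transcripts of at least 5 CPM (adjusted p = 0.0408), which called 27.6% of transcripts.

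MAGOH showed the widest difference of the 7 transcripts above 5 CPM. It forms with RBM8A the heterodimer that locks the exon junction complex onto RNA. The gene lies on chromosome 1 from 53226900 to 53238518, and its listed transcript ENST00000371470 is the shortest of the 8, at 756 bases. Its level was 72.96, 70.99 and 55.8 TPM in control replicates 1, 2 and 3. In PRPF39 shRNA replicates 1, 2 and 3 it was 103.8, 115.6 and 116.6 TPM. Every PRPF39 shRNA library lay above every control library, and control replicate 3 was the lowest. The reads behind these levels were 4926.5, 5422 and 4202.5 estimated counts in control and 8835.7, 5924.8 and 12867.5 in PRPF39 shRNA libraries. The means were 66.6 ± 9.40 and 112 ± 7.11 TPM (SD, n = 3 each).

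The log2 fold change of MAGOH was 0.73 ± 0.14 (SE), or 1.65-fold with a 95% interval from 1.31-fold to 2.09-fold (adjusted p = 0.0781, edgeR). Among transcripts of at least 5 CPM it was 0.68 ± 0.12 (SE), and this passed the threshold (adjusted p = 0.0112, edgeR). DESeq2 called MAGOH in the full table (adjusted p = 5.96e-05), where it called 9.25% of all transcripts, and 27.6% when run on those of at least 5 CPM. A log2 change at least as high as the restricted edgeR one was found for 3.76% of the transcripts of at least 5 CPM. Limma on log2(TPM + 0.1) and on log2(TPM + 1) over the full table also called MAGOH higher (adjusted p = 0.0398 and 0.038), where 1.03% and 1.01% of transcripts were called. At 5 CPM and above, the edgeR call was kept in 5 of the 6 fits that left out a library, with adjusted p from 0.0205 to 0.0423 (edgeR), and lost by a narrow margin without PRPF39 shRNA replicate 3 (adjusted p = 0.0503, edgeR). Without control replicate 3, the library that stood farthest out, the log2 fold change was 0.59 ± 0.11 (SE; adjusted p = 0.027, edgeR). Transcripts of up to 1000 bases at this abundance, the length class of MAGOH, had a median log2 change of -0.01, and 6.71% of them were called higher. MAGOH has a close paralog, MAGOHB, whose reads the quantifier has to tell apart from its own. How alike their transcripts are was not checked, and those of the paralog were not analysed here.

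CASC3 is a peripheral component of the exon junction complex that promotes NMD. The gene lies on chromosome 17 from 40140537 to 40172171, and its listed transcript ENST00000264645 is 4116 bases long. Its level was 46.49, 33.87 and 38.21 TPM in the controls and 41.43, 46.08 and 44.59 TPM in PRPF39 shRNA replicates 1, 2 and 3. The groups overlapped, with the highest library among the controls in TPM. In CPM they overlapped as well, but PRPF39 shRNA replicate 2 was highest (174.7, against 154.4 in control replicate 1). Its log2 fold change was 0.14 ± 0.09 (SE), with a 95% interval from -0.06 to 0.35 (adjusted p = 0.479, edgeR). It was 0.08 without PRPF39 shRNA replicate 2 and 0.09 at 5 CPM and above, again not past the threshold. That interval ends at 1.27-fold, below the lower bound of 1.31-fold for MAGOH in the same fit.

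**Figure D2:**
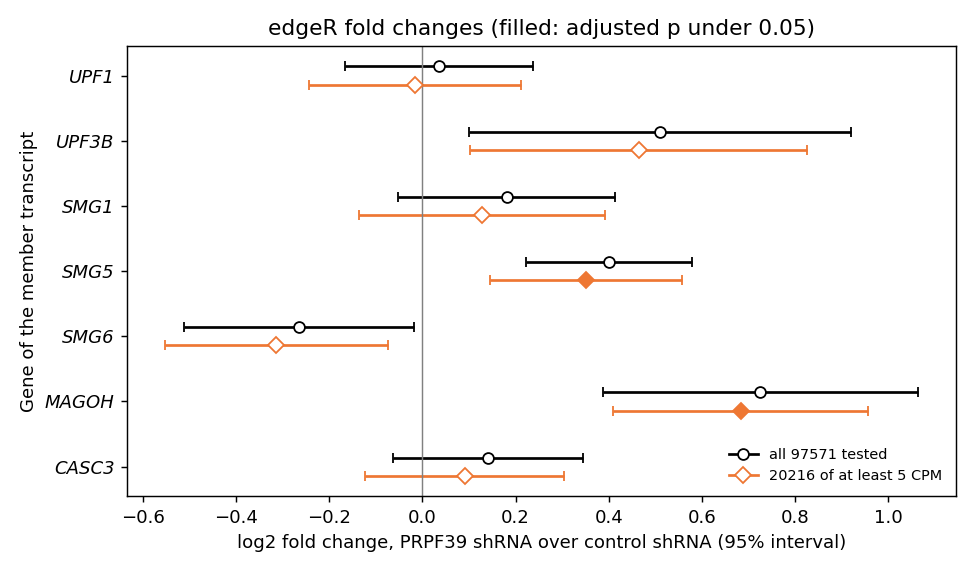
Log2 fold changes of the 7 transcripts above 5 CPM with 95% intervals, from edgeR over all 97571 tested transcripts (black circles) and over the 20216 of at least 5 CPM (orange diamonds). Filled symbols have an adjusted p under 0.05, which only MAGOH (0.68) and SMG5 (0.35) reach, and only in the restricted test.

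Counted over the list, 7 of 8 transcripts had a log2 fold change above 0 in the test across all transcripts, and 6 of 7 without UPF2. UPF1 was among them, with a sign that turned at 5 CPM and above. In the same test 48.3% of the 97571 tested and 55.3% of those of at least 5 CPM were above 0. The median was 0.29 over the 8 and 0.18 without UPF2, against -0.02 over all tested and 0.05 over those of at least 5 CPM. None of the 8 was called by edgeR or by limma-voom (0.898% called) over all transcripts tested, while 4 (UPF3B, SMG5, SMG6 and MAGOH) had an unadjusted p under 0.05, as had 16.1% of all tested and 34.5% of those of at least 5 CPM. DESeq2 called 3, all higher (UPF3B, SMG5 and MAGOH), where 5.02% of all were called higher. That share counts transcripts to which DESeq2 gave no adjusted p, UPF2 among them. Run on those of at least 5 CPM, it called the same 3 higher, where 13.3% of transcripts were. Of 8, 3 had PRPF39 shRNA libraries wholly above the controls in CPM, as had 12.6% of all tested and 24% of those of at least 5 CPM. In the restricted test 2 of the 7 were called higher and 0 lower, where 8.55% of all 20216 were called higher and 9.13% lower.

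**Figure D3:**
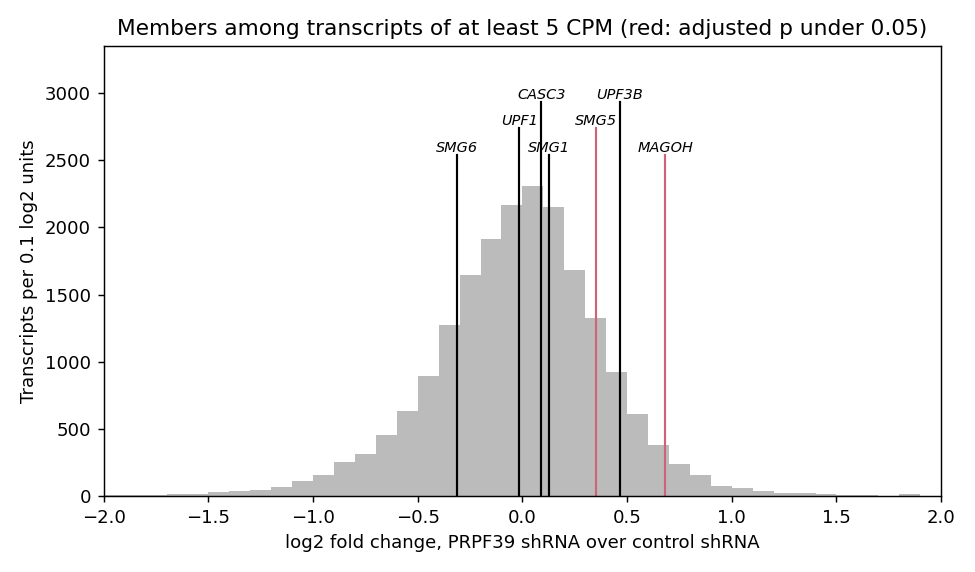
Distribution of log2 fold changes of transcripts of at least 5 CPM (grey bars, transcripts per bin of 0.1 log2 units) with the 7 NMD factor transcripts as vertical lines, whose heights carry no value. MAGOH (red, 0.68) lies in the upper tail with 3.76% of transcripts at or above it, SMG5 (red, 0.35) and UPF3B (0.46) on the upper flank, UPF1, CASC3 and SMG1 near the centre, and SMG6 (-0.31) on the lower flank with 20.9% at or below it.

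Ratios of 2 transcripts within a library do not depend on how libraries are scaled to each other. The ratio of MAGOH to CASC3 in TPM was 1.57, 2.096 and 1.46 in control and 2.506, 2.509 and 2.616 in PRPF39 shRNA replicates 1, 2 and 3. The groups did not overlap, as the levels of MAGOH alone did not, and the pairs were chosen with these levels known. The ratio of SMG5 to UPF1 was 1.364, 1.27 and 1.232 in control and 1.665, 1.613 and 1.681 in PRPF39 shRNA libraries, again without overlap. Its SD relative to the mean was the smallest of the 6 ratios in both groups, with 1.29 ± 0.07 and 1.65 ± 0.04 (SD, n = 3 each).

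The ratio of SMG5 to SMG6 was 7.091, 7.684 and 8.286 in control and 10.57, 13.95 and 12.27 in PRPF39 shRNA libraries. The groups did not overlap, and the mean went from 7.69 ± 0.60 to 12.3 ± 1.69 (SD, n = 3 each). The ratio of UPF3B to SMG6 went from 1.06 ± 0.15 to 1.80 ± 0.44 (SD, n = 3 each), without overlap. SMG5 and UPF3B were already higher, and SMG6 lower, without overlap in CPM. The separation of both ratios to SMG6 thus adds no evidence. The share of all transcript pairs whose ratios do not overlap was not computed. The ratios of UPF3B to UPF1 (0.178 ± 0.031 and 0.241 ± 0.041) and of SMG1 to UPF1 (0.427 ± 0.038 and 0.474 ± 0.018) overlapped between groups (SD, n = 3 each). These ratios are a description, since 3 libraries against 3 cannot give an exact two-sided permutation p under 0.1.

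**Figure D4:**
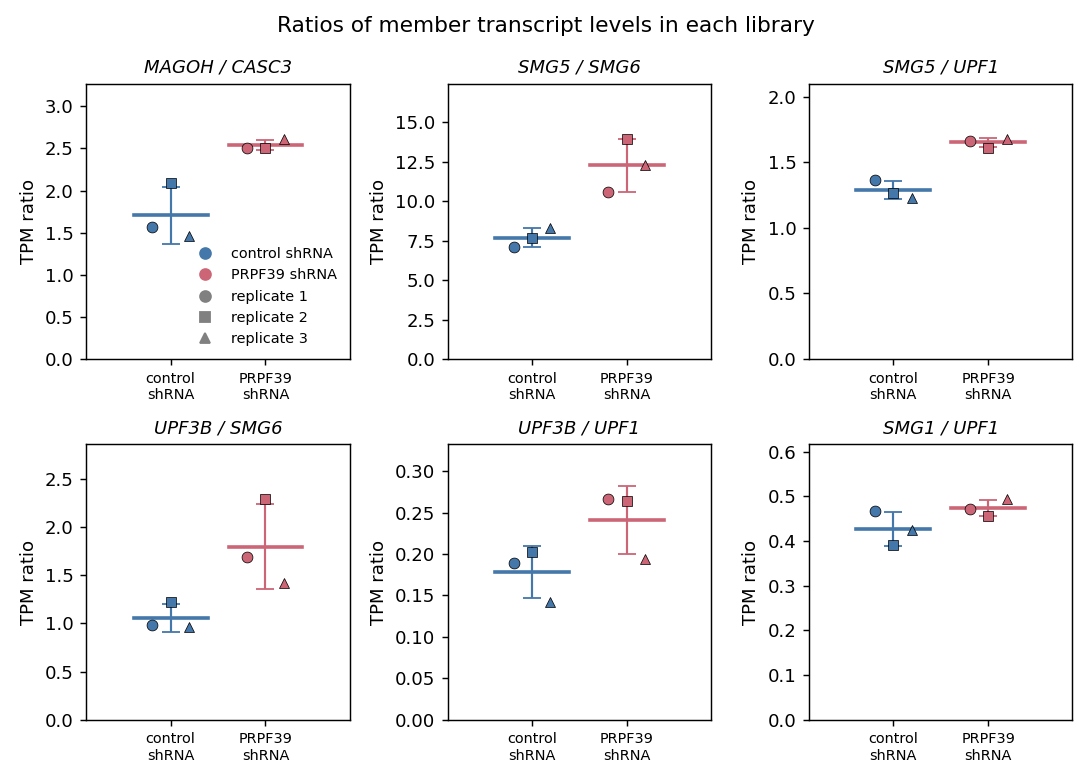
Ratios of TPM between pairs of NMD factor transcripts in each library, with group means (bars) and ± 1 SD of 3 libraries (whiskers). MAGOH over CASC3, SMG5 over SMG6, SMG5 over UPF1 and UPF3B over SMG6 do not overlap between groups, and UPF3B over UPF1 and SMG1 over UPF1 do. The pairs were chosen with the levels known.

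The promoters of the transcripts that stood higher without overlap are shown to let a reader see whether they share sequence. Those of SMG6, which was lower without overlap in CPM, are not printed. RefSeq (GRCh38.p14) gave windows for 7 of the 8 genes. The 250 bases before the start site are printed 5′ to 3′ on the strand of the gene, which is the minus strand for the 3 genes shown. Capitals mark matches on either strand to GGGCGG (GC box), CCGGAAG (ETS core), TGACGTCA (cyclic AMP response element), CCAAT, AAGATGGCG (YY1) or TATAAA, and no match overlapped one of another motif. SMG5 has 2 annotated starts, and which of them the listed transcript uses was not determined.
MAGOH, chr1:53238519-53238768: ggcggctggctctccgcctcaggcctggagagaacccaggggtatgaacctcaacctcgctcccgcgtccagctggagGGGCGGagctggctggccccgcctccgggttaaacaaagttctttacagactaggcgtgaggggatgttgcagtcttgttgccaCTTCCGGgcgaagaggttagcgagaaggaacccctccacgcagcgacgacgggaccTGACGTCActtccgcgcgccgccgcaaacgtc
UPF3B, chrX:119852964-119853213: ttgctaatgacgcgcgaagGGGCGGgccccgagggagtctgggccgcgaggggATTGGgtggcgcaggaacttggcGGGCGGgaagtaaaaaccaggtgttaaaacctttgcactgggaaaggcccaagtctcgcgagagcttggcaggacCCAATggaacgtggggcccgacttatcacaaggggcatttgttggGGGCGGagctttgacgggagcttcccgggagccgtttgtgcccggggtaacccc
SMG5 first start, chr1:156291517-156291766: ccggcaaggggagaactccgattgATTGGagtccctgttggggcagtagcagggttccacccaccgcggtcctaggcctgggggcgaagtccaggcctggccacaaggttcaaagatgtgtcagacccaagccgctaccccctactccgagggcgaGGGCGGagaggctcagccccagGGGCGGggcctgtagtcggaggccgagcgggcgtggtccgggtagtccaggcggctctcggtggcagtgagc
SMG5 second start, chr1:156282826-156283075: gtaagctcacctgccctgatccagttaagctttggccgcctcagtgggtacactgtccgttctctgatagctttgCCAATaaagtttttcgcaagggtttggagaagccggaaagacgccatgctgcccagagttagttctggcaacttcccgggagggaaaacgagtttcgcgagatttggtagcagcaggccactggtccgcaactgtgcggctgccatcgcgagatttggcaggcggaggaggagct
The MAGOH window held a GC box 172 bases, an ETS core 88 bases and a cyclic AMP response element 32 bases before the start. The exact letters of the latter 2 (CCGGAAG and TGACGTCA) were found in none of the other 11 windows of these genes. They occurred in 8.52% and 1.65% of all 35116 windows of the same length. Sites that differ from these letters were not searched for, so other windows may hold variant forms. The UPF3B window held 3 GC boxes and 2 CCAAT boxes. For SMG5, the first window held 2 GC boxes and 1 CCAAT box and the second a single CCAAT box. GC boxes occurred in 42.6% and CCAAT boxes in 32.0% of all windows. A GC box was found for all 7 genes with a window, those whose transcripts overlapped between groups or were lower included, and CCAAT boxes also for UPF1 and UPF2. No listed motif was thus shared by MAGOH, UPF3B and SMG5 alone. These are matches of letters and say nothing of binding.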

How the data were processed

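The authors deposited 1 table per library with estimated counts and TPM for each transcript, per the file headers. TPM, scaled by each library's own effective lengths, is the authors' deposited value. The submitters' processing notes name Salmon 0.11.1, STAR 2.7.9a, DESeq2 1.32.0, cutadapt 2.1 and build hg38; options and annotation release are not given in the sources used here. Effective lengths were 0.70 to 1.33 times the length for the 7 expressed NMD factor transcripts, which enters every TPM.

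Estimated counts were rounded and tested with edgeR 4.0.16 (R 4.3.3) over all 6 libraries: filterByExpr (minimum count 10), TMM, quasi-likelihood test of group, no covariate, Benjamini-Hochberg adjusted p over all transcripts tested. SE is the size of the log2 fold change over the square root of F. Alternatives were limma-voom (limma 3.58.1), DESeq2 1.42.0, RLE and upper-quartile scaling, no filter, a floor of 5 CPM on the mean, effective-length offsets, limma on log2(TPM + 0.1) and log2(TPM + 1), a replicate block and leaving out each library. The scripts were tested on simulated data. All 8 listed transcripts are named. The members and lists, the motifs and the pairs in ratios were chosen with earlier results of these data known. A list of other NMD genes, PRPF39 and transcripts of like pattern were planned and not analysed here, because the IDs were not matched to genes. Counting error (1 over the square root of the count) was at most 2.47% for the 7 transcripts. No library was counted as a duplicate (chi-square per degree of freedom at least 29.2).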

Additional observations from a re-analysis of the deposited data

How the results depend on the processing

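Over all alternatives, the log2 fold changes of MAGOH, SMG5, UPF3B, SMG1 and CASC3 stayed above 0 and that of SMG6 below 0. That of UPF1 reversed, to -0.015 with a mean of at least 5 CPM, and ran from -0.021 (without PRPF39 shRNA replicate 2) to 0.092 when single libraries were left out. At 5 CPM and above leaving out single libraries gave -0.068 to 0.052. The median of the 7 transcripts other than UPF2 was 0.18, and the alternatives planned in advance gave 0.115 to 0.243. Each moved it by less than 0.094. That yardstick is the SD between libraries of a group, pooled over both groups, of the median relative log2 CPM of all 8, UPF2 included. The median was not taken for the 5 CPM alternatives chosen later. Transcripts called numbered 1729 higher and 1845 lower with a mean of at least 5 CPM, with 2 of the 7 listed, and 4898 and 4126 with DESeq2, with 3 listed. Limma on log2(TPM + 0.1) and on log2(TPM + 1) each called 1 of the 8, MAGOH (adjusted p = 0.0398 and 0.038). With any 1 library left out, between 0 and 14 were higher, between 0 and 12 lower, and 0 of the 8 were called. Same-numbered replicates were not treated as pairs: deviations of same-numbered libraries correlated at 0.16, 0.03 and 0.00. With the replicate block 0 were called higher and 0 lower (edgeR). The 5 CPM alternatives other than the filter itself were chosen after seeing the data. There DESeq2 called 2693 higher and 2892 lower with 4 of the 7, the replicate block 1 of the 7 (MAGOH, adjusted p = 0.015, edgeR; 16.7% of all called), and with any 1 library left out between 393 and 2049 were higher, between 488 and 2220 lower, and 0 to 2 of the 7 were called. The causes were not tested.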
